A study of Homo sapiens with 4 samples.

Results

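The genes described here are 35 nuclear genes for aminoacyl-tRNA synthetases, 19 for the cytosolic enzymes and 16 for the mitochondrial ones, out of 61541 genes in the count table. They were taken by name from a list, with symbols that end in 2 counted as mitochondrial, and all 35 passed the filter on low counts and were tested. MHCC97H is an established human hepatocellular carcinoma (HCC) cell line. RNA was sequenced from 2 libraries of control cells carrying a control shRNA (shCon) and from 2 libraries of UBXN1-knockdown cells carrying an shRNA to UBXN1 (shUBXN1). UBXN1 is an adaptor protein of the ATPase VCP, which extracts and unfolds ubiquitinated proteins. The shRNAs were delivered in a lentiviral vector, no further treatment is named for either group, and the sources do not say which of the UBXN1 shRNAs was used for the sequenced cells or whether the libraries of a group came from separate cultures. The p-values therefore measure the spread between these libraries, which may be technical.

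Each aminoacyl-tRNA synthetase joins an amino acid to its matching tRNA with ATP, and so sets which amino acid a codon is read as. The cytosol and the mitochondrion use separate sets of tRNAs, and most amino acids have one nuclear gene for the cytosolic enzyme and another for the mitochondrial one. GARS1 and KARS1 are exceptions, since each gene makes the glycine or lysine enzyme of both compartments. Mitochondria charge the glutamine tRNA with glutamate through EARS2, and an amidotransferase then converts the amino acid. In the cytosol several synthetases are held together by scaffold proteins in the multisynthetase complex. Many cytosolic synthetase genes are targets of ATF4, the transcription factor of the amino acid response.

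The libraries held 23373700 to 27380508 counts, and UBXN1 was at 67.1 and 77.3 CPM (counts scaled to library size with edgeR's TMM factors) in shCon and at 16.8 and 18.5 CPM in shUBXN1, so that 24.5% of the control level was left. Replicates correlated across genes at 0.989 in shCon and 0.988 in shUBXN1, and libraries of different groups at 0.945 to 0.948, where genes are not independent replicates. Of 13 hepatocyte and liver tumor markers, 2 stood at 3 counts or fewer in every library (APOA2 and GPC3), and KRT8, KRT18 and HNF4A were expressed in all 4. Of the 11 tested, 7 fell and 2 rose, with a median log2 fold change of -0.56. Past a fold of 2, 5 genes for secreted liver proteins fell (FGB at -4.02, TTR at -3.08, ALB at -1.97, TF at -1.96 and APOB at -1.85). The 2 that rose were SERPINA1, also a gene for a secreted liver protein (0.40, adjusted p = 0.0271, edgeR), and KRT18 (0.31, adjusted p = 0.0116, edgeR). AFP (-0.29) and APOA1 (-0.56), secreted as well, were not called in either direction. The summed level of that list was 4470 to 4630 CPM in shCon and 3470 to 4060 CPM in shUBXN1, mostly from KRT8 and KRT18. The T-cell marker CD3E was at 0 in every library and the leukocyte marker PTPRC at no more than 4 counts. The summed marker levels were 82.5 to 88.4 CPM in shCon and 70.7 to 72.9 CPM in shUBXN1 for leukocytes, nearly all from CD68, 33.8 to 34.1 and 42.9 to 44.4 CPM for endothelial cells, mostly PECAM1, and 33.3 to 33.7 and 17.0 to 19.6 CPM for fibroblasts, mostly LUM. LUM (-1.06) and DCN (-3.16) fell and COL1A1 (3.11) rose, the last 2 at 2.52 CPM or less in every library. The bile duct markers summed to 334 to 337 CPM in shCon and 210 to 226 CPM in shUBXN1, where KRT19 fell (-1.24) and KRT7 rose (1.15). The part of these markers in the differences below was not tested. In bulk RNA, fewer cells with a transcript and less of it per cell cannot be told apart.

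In shUBXN1 most of the cytosolic synthetase genes and some of the mitochondrial ones were lower. Of the 19 cytosolic genes, 13 fell and 1, WARS1, rose at a Benjamini-Hochberg adjusted p under 0.05 in edgeR's quasi-likelihood test. Among the 16 mitochondrial genes, 6 fell and 1, VARS2, rose. Over all 16863 genes tested, 56.2% passed, 28.2% lower and 28.0% higher, against 68.4% of the cytosolic and 37.5% of the mitochondrial genes called lower. The median log2 fold change was -0.28 for the cytosolic and -0.11 for the mitochondrial genes, beside 0.016 for all genes. The mitochondrial median was -0.015 without the first shUBXN1 library, -0.20 without the second and -0.026 under total count scaling. Both shUBXN1 libraries lay below both shCon libraries for 16 cytosolic and 8 mitochondrial genes, where 38.6% of all genes did so, and above both for 1 cytosolic and 3 mitochondrial genes, where 39.4% of all genes did. The falls were moderate. None of the 35 genes changed by a fold of 2, the threshold the study's methods state, at which 6.09% of all genes were lower and 11.8% higher. At a fold of 1.5 together with an adjusted p under 0.05, 4 cytosolic genes (FARSB, GARS1, AARS1 and MARS1) and 4 mitochondrial genes (LARS2, AARS2, SARS2 and EARS2) were lower and none was higher, beside 13.9% and 18.0% of all genes. Without the second shCon library fewer of the cytosolic genes, and fewer of all genes, were called lower, and VARS2 no longer passed. The cytosolic median in that fit was -0.27.

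**Figure D1:**
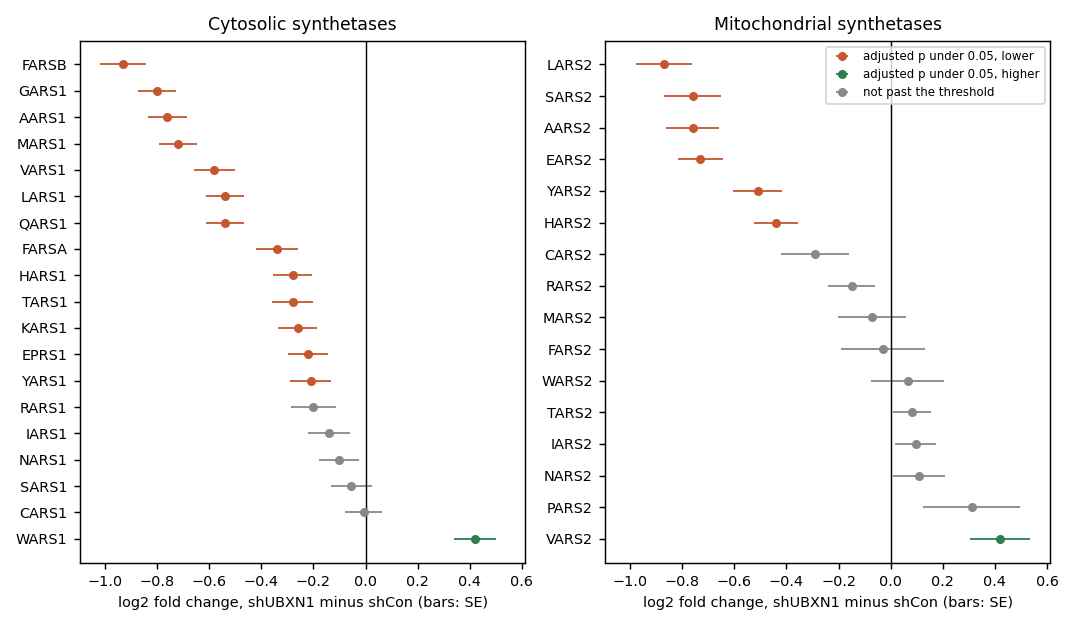
Log2 fold change of each synthetase gene, shUBXN1 minus shCon, with its standard error as bars, cytosolic genes on the left and mitochondrial genes on the right; colors mark the call at an adjusted p under 0.05. The cytosolic genes run from -0.93 (FARSB) to 0.42 (WARS1) with 18 of 19 below 0. The mitochondrial genes run from -0.87 (LARS2) to 0.42 (VARS2) with 10 of 16 below 0. CARS1, SARS1, FARS2 and MARS2, all short of the threshold, turned above 0 under total count scaling, which moved the median of all genes from 0.016 to 0.10. In limma on log2(TPM + 1), with TPM as defined below, CARS1, SARS1 and FARS2 were also above 0 (0.051, 0.0039 and 0.024). With at least 10 counts required in every library, CARS1 was above 0 (0.021). Without the first shUBXN1 library SARS1, FARS2 and MARS2 were above 0 (0.0025, 0.092 and 0.076). Without the second, NARS2 and WARS2 were below 0 (-0.023 and -0.065).

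Levels were compared between genes per length, as TPM, in which each deposited count is divided by the gene's length and scaled to the same total in every library. The cytosolic genes had a median of 89.3 TPM in shCon and the mitochondrial genes 21.8 TPM. Summed TPM of the cytosolic genes was 1860 and 1840 in shCon and 1540 and 1550 in shUBXN1, so the groups were apart by more than the libraries within them. For the mitochondrial genes the sums were 471 and 474 TPM in shCon and 433 and 432 TPM in shUBXN1. GARS1 was the highest of all in shCon at 164 TPM, followed by NARS1 at 157 and IARS1 at 152 TPM, and in shUBXN1 it was at 98.3 TPM, below NARS1 at 152 and IARS1 at 144 TPM. The lowest cytosolic level was that of FARSB, at 21.5 TPM, but the deposited length of FARSB is 6761 bases, against 2057 bases for FARSA, and in CPM the 2 genes were closer. IARS2, at 107 TPM in shCon, was the highest mitochondrial gene and PARS2, at 5.02 TPM, the lowest.

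**Figure D2:**
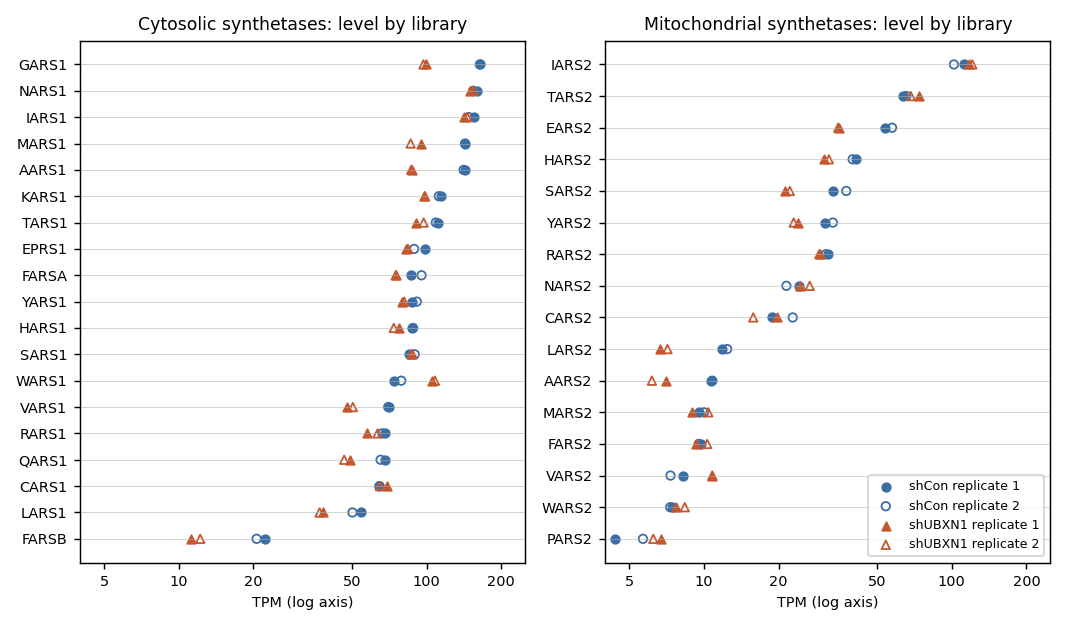
Level of each synthetase gene in TPM on a log axis in the 4 libraries, circles for shCon and triangles for shUBXN1, filled for replicate 1 and open for replicate 2, ordered by the mean level in shCon. Cytosolic means in shCon lie between 21.5 and 164 TPM and mitochondrial means between 5.02 and 107 TPM, and the triangles stand to the left of the circles for, among others, GARS1, MARS1, AARS1, FARSB, EARS2, SARS2, LARS2 and AARS2.

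FARSB encodes the beta subunit of cytosolic phenylalanyl-tRNA synthetase, an enzyme built from alpha and beta chains, and had the largest fall. It was at 74.1 and 70.7 CPM in shCon and at 35.1 and 40.9 CPM in shUBXN1, with no overlap of the groups. The change of -0.93 on the log2 scale left 52.4% of the control level (standard error 0.0867, adjusted p = 5.76e-07, edgeR). FARSA, the alpha subunit with the catalytic site, was at 87.7 and 99.4 CPM in shCon and at 71.5 and 76.8 CPM in shUBXN1. It changed by -0.34 on the log2 scale (standard error 0.0817, adjusted p = 0.00293, edgeR). Both subunit genes thus fell, and the difference between their fold changes was not tested. Without the second shCon library FARSA was at -0.26 with an adjusted p of 0.116 in edgeR. FARS2, the single-chain mitochondrial phenylalanine enzyme, was at 7.99 and 8.09 CPM in shCon and at 7.19 and 8.59 CPM in shUBXN1, so its groups overlapped (log2 fold change -0.028, adjusted p = 0.897, edgeR).

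GARS1, on chromosome 7 of GRCh38 from 30580533 to 30634033, charges glycine tRNAs in both compartments. It was at 199 and 204 CPM in shCon and at 113 and 118 CPM in shUBXN1 (log2 fold change -0.80, standard error 0.0728, adjusted p = 4.74e-07, edgeR). KARS1, the lysine enzyme of both compartments, was at 135 and 137 CPM in shCon and at 109 and 119 CPM in shUBXN1. Its log2 fold change was -0.26 (adjusted p = 0.00878, edgeR), so both dual genes fell, GARS1 to 57.5% and KARS1 to 83.7% of the control level. Without the second shCon library the adjusted p of KARS1 was 0.125.

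AARS1 and AARS2, the cytosolic and mitochondrial alanine enzymes, both fell to 58.9% of the control level. AARS1 was at 251 and 255 CPM in shCon and at 144 and 154 CPM in shUBXN1 (log2 fold change -0.76, standard error 0.0739, adjusted p = 8.55e-07, edgeR). AARS2 was at 25.2 and 26.2 CPM in shCon and at 15.6 and 14.7 CPM in shUBXN1 (log2 fold change -0.76, standard error 0.103, adjusted p = 2.21e-05, edgeR). Per length, AARS1 stood 13.1 to 13.4 times above AARS2 in shCon and 12.4 to 14.1 times in shUBXN1, ranges that overlap.

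Leucine showed the same direction in both compartments. LARS1, the cytosolic leucine enzyme, which is also a leucine sensor for mTORC1, was at 128 and 121 CPM in shCon and at 83.7 and 87.4 CPM in shUBXN1 (log2 fold change -0.54, standard error 0.0734, adjusted p = 2.3e-05, edgeR). LARS2 was at 27.8 and 30.1 CPM in shCon and at 14.7 and 16.9 CPM in shUBXN1. The fall to 54.6% of the control level was the largest among the mitochondrial genes (-0.87 on the log2 scale, standard error 0.107, adjusted p = 8.89e-06, edgeR). Histidine and tyrosine also had falls on both sides. HARS1 and HARS2 lie head to head on chromosome 5 and overlap by 108 bases at their 5′ ends, and their log2 fold changes were -0.28 (adjusted p = 0.00493) and -0.44 (adjusted p = 0.000574, edgeR). YARS1 and YARS2 were at -0.21 (adjusted p = 0.0325) and -0.51 (adjusted p = 0.000358, edgeR). Without the second shCon library the adjusted p was 0.102 for HARS1 and 0.335 for YARS1, and YARS1 also missed the threshold without the first shUBXN1 library (0.0825) and under total count scaling (0.108).

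For methionine and serine the compartments differed in their calls, and for glutamate both genes fell. MARS1, the cytosolic methionine enzyme, was at 196 and 203 CPM in shCon and at 123 and 120 CPM in shUBXN1 (log2 fold change -0.72, standard error 0.0721, adjusted p = 1.22e-06, edgeR). MARS2 was at 14.2 and 15.3 CPM in shCon and at 12.5 and 15.6 CPM in shUBXN1, with overlapping groups (log2 fold change -0.071, adjusted p = 0.669, edgeR). MARS1 per length was 14.3 to 14.9 times as high as MARS2 in shCon and 8.31 to 10.6 times in shUBXN1. Serine had the opposite pattern. SARS1 was at 78.4 and 85.3 CPM in shCon and at 75.4 and 82.1 CPM in shUBXN1 (log2 fold change -0.055, adjusted p = 0.581, edgeR), so these groups overlapped. SARS2 was at 26.6 and 30.9 CPM in shCon and at 16.0 and 17.9 CPM in shUBXN1 (log2 fold change -0.76, standard error 0.110, adjusted p = 4.11e-05, edgeR). The ratio of SARS1 to SARS2 per length went from 2.39 to 2.55 in shCon to 3.96 to 4.10 in shUBXN1. The annotated gene ENSG00000269547 covers 48.2% of the exon bases of SARS2 on the same strand, so its counts depend on how shared reads were divided. EARS2, which makes glutamyl-tRNA in mitochondria for both glutamate and glutamine codons, was at 45.3 and 49.6 CPM in shCon and at 27.7 and 29.5 CPM in shUBXN1 (log2 fold change -0.73, standard error 0.0871, adjusted p = 6.59e-06, edgeR). EPRS1, the cytosolic gene that joins the glutamate and proline enzymes in 1 chain, was at 234 and 219 CPM in shCon and at 186 and 203 CPM in shUBXN1 (log2 fold change -0.22, standard error 0.0773, adjusted p = 0.0249, edgeR). EPRS1 stayed below 0 but missed the threshold in 5 of 14 alternative settings, with adjusted p-values from 0.000275 to 0.235 over all 14.

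Valine was the one pair in which the genes moved in opposite directions with both past the threshold. VARS1, the cytosolic valine enzyme, was at 142 and 146 CPM in shCon and at 90.2 and 103 CPM in shUBXN1 (log2 fold change -0.58, standard error 0.0796, adjusted p = 2.7e-05, edgeR). VARS2 was at 14.4 and 13.2 CPM in shCon and at 17.8 and 19.1 CPM in shUBXN1 (log2 fold change 0.42, standard error 0.115, adjusted p = 0.00649, edgeR). VARS1 per length was 8.54 and 9.57 times as high as VARS2 in the shCon libraries and 4.40 and 4.66 times in the shUBXN1 libraries. The annotated gene ENSG00000288473 covers 63.0% of the exon bases of VARS2 on the same strand, and the same limit holds for its counts. The adjusted p of VARS2 was 0.0953 without the second shCon library. The values in each library of members that neither passed a fold of 1.5 nor partner one that did, VARS1, VARS2 and WARS1 among them, were chosen for print after they were seen.

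WARS1, the cytosolic tryptophan enzyme and a known interferon gamma target, was the one cytosolic gene that rose. It was at 75.8 and 83.2 CPM in shCon and at 101 and 112 CPM in shUBXN1, with no overlap (log2 fold change 0.42, standard error 0.0804, adjusted p = 0.000472, edgeR). Its log2 fold change stayed between 0.33 and 0.50 over 14 alternative settings and past the threshold in each. Antisense genes cover 10.6% of its exon bases, and 18.1% of those of YARS2. WARS2 was at 10.2 and 10.3 CPM in shCon and at 9.90 and 11.6 CPM in shUBXN1 (log2 fold change 0.066, adjusted p = 0.715, edgeR). Of 12 genes listed for the interferon gamma response, 9 were tested, and 4 rose while 2 fell. The counts of this list and of those that follow stand beside the 28.0% of all genes called higher and the 28.2% called lower. TAP1, the peptide transporter of antigen presentation, had a log2 fold change of 1.65 (adjusted p = 3.25e-09), and the guanylate-binding protein genes GBP1 and GBP2 were at -1.81 (adjusted p = 1.79e-05) and -1.37 (adjusted p = 1.78e-07, edgeR).

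The remaining members were mostly short of the threshold. QARS1, the cytosolic glutamine enzyme, was at 81.6 and 80.9 CPM in shCon and at 55.3 and 56.6 CPM in shUBXN1 (log2 fold change -0.54, adjusted p = 2.32e-05, edgeR). TARS1, the threonine enzyme, was at -0.28 on the log2 scale (adjusted p = 0.00842, edgeR), and at an adjusted p of 0.0895 without the second shCon library. The cytosolic genes that did not pass were RARS1 (arginine, -0.20), IARS1 (isoleucine, -0.14), NARS1 (asparagine, -0.10), SARS1 and CARS1 (cysteine, -0.007). CARS1 was at 86.7 and 89.3 CPM in shCon and at 87.1 and 88.1 CPM in shUBXN1, nearly level. Under total count scaling CARS1 and SARS1 were above 0, at 0.078 and 0.029, as were FARS2 and MARS2, at 0.055 and 0.011. The first shUBXN1 library was the lower of that group for RARS1, IARS1 and NARS1. RARS1 was at 56.4 CPM in that library and 66.9 CPM in the other, beside 70.7 and 71.2 CPM in shCon. On the mitochondrial side CARS2 (-0.29), RARS2 (-0.15), MARS2, FARS2, WARS2, TARS2 (0.082), IARS2 (0.096), NARS2 (0.11) and PARS2 (0.31) did not pass. CARS2 was at 17.0 and 21.2 CPM in shCon and at 16.7 and 14.4 CPM in shUBXN1, and its log2 fold change ran from -0.44 to -0.14 depending on which shCon library was left out. PARS2 was at 5.06 and 6.77 CPM in shCon and at 7.27 and 7.30 CPM in shUBXN1.

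The synthetases were also grouped by the fold of the catalytic domain and by assembly. Class I enzymes, which have a Rossmann fold, numbered 18, of which 8 fell and 2 rose, with a median log2 fold change of -0.21. Of the 16 class II enzymes, 10 fell and none rose, with a median of -0.28 (EPRS1 holds both folds and was left out of both counts). The 7 synthetases of the multisynthetase complex in the list (EPRS1, IARS1, KARS1, LARS1, MARS1, QARS1 and RARS1) were all below 0, and 5 of them fell, with a median of -0.26. Of the other 12 cytosolic genes 8 fell and 1 rose, with a median of -0.28. The scaffold genes of the complex all fell. AIMP1 was at 83.9 and 78.9 CPM in shCon and at 49.3 and 50.2 CPM in shUBXN1 (log2 fold change -0.71, standard error 0.0757, adjusted p = 2.19e-06, edgeR). AIMP2 was at -0.47 (adjusted p = 0.000271) and EEF1E1, the gene for the scaffold AIMP3, at -0.76 (adjusted p = 0.000123, edgeR).

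Some promoters of the cytosolic genes hold the C/EBP-ATF response element, the sequence that ATF4 binds with its partners. Promoters of 300 bases, from 250 bases before the RefSeq start (GRCh38.p14) to 50 bases after it, were found by symbol for 30 of the 35 genes. They were searched on both strands for TGATGNAA. The element was found in 6 of 16 cytosolic promoters and in 1 of 14 mitochondrial ones (YARS2), beside 3.67% of the 27305 promoters in the table and 1.81% of those of genes tested here. The 6 cytosolic sites all read TGATGCAA, a sequence in 0.923% of all promoters and 0.548% of those of genes tested. They are shown because the fold changes of the genes that carry them span much of the range above, each in the direction of the gene with the element in capitals, which is its reverse complement in all but NARS1.
AARS1 (chr16:70289675-70289704, minus strand): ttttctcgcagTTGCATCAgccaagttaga
MARS1 (chr12:57488053-57488082, plus strand): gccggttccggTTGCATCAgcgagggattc
TARS1 (chr5:33440956-33440985, plus strand): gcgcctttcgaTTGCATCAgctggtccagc
IARS1 (chr9:92293692-92293721, minus strand): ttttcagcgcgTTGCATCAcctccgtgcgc
NARS1 (chr18:57621804-57621833, minus strand): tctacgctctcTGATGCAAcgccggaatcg
CARS1 (chr11:3057407-3057436, minus strand): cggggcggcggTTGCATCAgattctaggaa

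The genes with the element ran from -0.76 for AARS1 and -0.72 for MARS1 through -0.28 for TARS1 to -0.14, -0.10 and -0.007 for IARS1, NARS1 and CARS1, so that 3 of 6 fell. FARSB and GARS1, with the largest falls among the cytosolic genes, had no such letters in their windows. The GARS1 window, at its RefSeq start, runs from 30594485 to 30594784, inside the gene span given above. Several other windows, that of MARS1 among them, also lie inside the annotated gene. LARS1, VARS1, YARS1, AARS2 and VARS2 had no window to search. The E-box CACGTG, which reads the same on both strands and is bound by MYC among others, was in 1 cytosolic promoter (IARS1) and 3 mitochondrial ones (MARS2, CARS2 and EARS2), beside 7.43% of all promoters and 9.91% of those of genes tested. Of 12 cytosolic synthetases often listed as ATF4 targets, 7 fell and 1 rose, with a median of -0.22, and of the other 7 cytosolic genes 6 fell, with a median of -0.34.

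Several genes of amino acid supply fell by more than any synthetase. Of 25 tested genes of ATF4 and amino acid supply, 14 fell, 8 of them past a fold of 2, and 4 rose, with a median log2 fold change of -0.25. ATF4 was at 197 CPM in both shCon libraries and at 150 and 145 CPM in shUBXN1 (log2 fold change -0.42, standard error 0.0715, adjusted p = 0.000191, edgeR). PHGDH, the first enzyme of serine synthesis, was at 49.9 and 48.0 CPM in shCon and at 15.7 and 15.1 CPM in shUBXN1 (log2 fold change -1.67, adjusted p = 3.18e-09, edgeR). TRIB3, a pseudokinase induced by ATF4, and SLC7A1, a transporter of arginine and lysine, had log2 fold changes of -1.63 (adjusted p = 1.06e-09) and -1.59 (adjusted p = 3.47e-09, edgeR). DDIT3, which lies antisense to part of MARS1, was at 39.2 and 37.1 CPM in shCon and at 34.9 and 41.3 CPM in shUBXN1, with overlapping groups. Antisense genes, DDIT3 among them, cover 12.4% of the exon bases of MARS1, and whether reads were counted by strand is not given in the sources used here. The eIF2alpha kinases and phosphatase subunits act above ATF4, and were listed together with GCN1. Of these 7 genes, 3 fell (42.9%) and 2 rose (28.6%), the latter close to the share of all genes called higher. GCN1, which is not itself a kinase or phosphatase subunit, was among those that fell (-0.32, adjusted p = 0.00249, edgeR). PPP1R15B and PPP1R15A, phosphatase subunits that reverse the phosphorylation of eIF2alpha, rose with log2 fold changes of 0.73 (adjusted p = 1.89e-06) and 0.38 (adjusted p = 0.00103), and the kinase gene EIF2AK2 was at -0.44 (adjusted p = 0.000136, edgeR).

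Genes that make and use tRNAs were counted in the same fit. Of 28 genes of tRNA maturation and export, 19 fell and 4 rose, with a median log2 fold change of -0.30. The largest falls were those of WDR4, a subunit of the tRNA guanine methyltransferase, at -1.11 (adjusted p = 6.23e-08), TSEN15, of the tRNA splicing endonuclease, at -1.04 (adjusted p = 6.12e-07), and RPP40, of RNase P, at -0.76 (adjusted p = 0.00114, edgeR). Among 7 cytosolic elongation factors, which bring the charged tRNA to the ribosome and move it on, 4 fell, with EEF1B2 at -0.62 (adjusted p = 7.14e-06) and EEF2 at -0.57 (adjusted p = 7.1e-05, edgeR). EEF1A2, a form of the tRNA carrier EF1A that is usually restricted to muscle and nerve, was at 137 and 142 CPM in shCon and at 350 and 397 CPM in shUBXN1 (log2 fold change 1.42, adjusted p = 5.82e-09, edgeR). The factors of mitochondrial translation fell in 4 of 9 cases and rose in none, with MTIF3 at -0.57 (adjusted p = 0.00547), GFM1 at -0.36 (adjusted p = 0.000655) and MTIF2 at -0.33 (adjusted p = 0.00355, edgeR). Of the genes that finish mitochondrial aminoacyl-tRNAs, the amidotransferase subunit gene GATC fell (-0.39, adjusted p = 0.00062, edgeR), and QRSL1 (-0.20), GATB (0.0071) and the formyltransferase gene MTFMT (0.16) did not pass. DTD2, which removes wrongly attached amino acids, fell (-0.43, adjusted p = 0.0272, edgeR), and DTD1 (-0.017) and the editing gene AARSD1 (0.13) did not pass.

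TARS3, which encodes a further cytosolic threonyl-tRNA synthetase related to TARS1 and is outside the list of 35, moved against it. It was at 9.94 and 10.4 CPM in shCon and at 26.9 and 29.2 CPM in shUBXN1 (log2 fold change 1.47, standard error 0.110, adjusted p = 7.11e-08, edgeR), whereas TARS1 was at 138 and 139 CPM in shCon and at 106 and 122 CPM in shUBXN1. TARS2, the mitochondrial threonine enzyme, was at 84.8 and 90.5 CPM in shCon and at 93.0 and 92.5 CPM in shUBXN1 (adjusted p = 0.360, edgeR).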

How the data were processed

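RNA-seq libraries of MHCC97H cells, 2 shCon and 2 shUBXN1, were grouped by their sample labels. By the study's methods, paired-end reads were aligned to GRCh38 with Hisat2, TPM was calculated and limma was used, whereas the submitters' processing notes list HISAT2 2.0.4, StringTie 1.3.0 and GRCh37. The methods name shRFP and a TruSeq kit where the labels name shCon and another kit. The authors deposited expected counts per gene, not normalized, with a gene length that fills the one other column, and no comparison columns. The counting tool and annotation release are not given in the sources used here. Depending on the library, whole numbers made up 62.4% to 64.6% of nonzero values.

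Counts were rounded, filtered with filterByExpr, scaled by TMM and compared by the quasi-likelihood test of edgeR 4.0.16 (glmQLFit, glmQLFTest, R 4.3.3), with no block and Benjamini-Hochberg adjustment over the 16863 genes tested. Standard errors are the log2 fold change over the square root of F. The spread had 2 residual degrees of freedom per gene, shared across genes. TPM was computed from the deposited counts and lengths. Alternatives used DESeq2 1.42.0, limma 3.58.1 (voom, log2(TPM + 1), log2(CPM + 1)), other scalings and filters, GC correction and left-out libraries. The test was checked on simulated counts with the same spread for every gene and few changed genes. That setting is simpler than these data, so the check does not show how the test behaves here. Replicates differed by more than sampling noise (chi-square per degree of freedom 3.83 in shCon and 8.48 in shUBXN1). Gene positions are from GENCODE v44 (GRCh38) and promoters from RefSeq (GRCh38.p14), and the deposited table holds no coordinates.

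Members, lists and tests were chosen with earlier results of these data known. All 35 members are named. Full values were planned for members past an adjusted p of 0.05 and beyond 0.58 on the log2 scale, and for their partners, and up to 3 called genes with the largest change were named from each other list, or all genes of lists of 4 or fewer; ATF4 and DDIT3 were named after their values were seen.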

Additional observations from a re-analysis of the deposited data

How the results depend on the processing

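No log2 fold change of a called synthetase gene changed sign under DESeq2, limma-voom, limma on log2(TPM + 1) or log2(CPM + 1), total count or RLE scaling, no filter, at least 10 counts in every library, a replicate block, GC correction or any left-out library. With a 2-fold limit and p under 0.05 before adjustment, 0 cytosolic and 0 mitochondrial genes were called in either direction. At an adjusted p under 0.05 and a fold of 1.5, 4 cytosolic genes were lower and 0 were higher, and 0 mitochondrial genes were higher. With each library left out in turn, 7 to 16 cytosolic genes were called lower, the lowest without the second shCon library, and 0 to 2 mitochondrial genes higher, 0 without the second shCon library and 2 without the first shUBXN1 library. The cytosolic median log2 fold change was between -0.34 and -0.20 with a library left out, -0.20 without the first shUBXN1 library. Total count scaling, which moved the median of all genes from 0.016 to 0.10, gave a cytosolic median of -0.19 and a mitochondrial median of -0.026. With that scaling 3 mitochondrial genes were called higher, beside 5324 of all 16863 genes tested. The deviations of same-numbered libraries correlated at r = 0.039 across genes. Genes are not independent replicates, so this value cannot decide whether the numbers pair the libraries. With the replicate block, 14 cytosolic and 7 mitochondrial genes were called lower, beside 5023 of all 16863 genes tested. Beyond the threshold effects above, 2 libraries per group limit how well the spread is known, and PARS2, FARS2 and WARS2, at about 10 CPM or below, have the widest standard errors.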
